A study of Mus musculus with 2 samples.

Results

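The enzymes that make serine, move its one-carbon units through folate and make proline were followed through all their probe sets on 2 expression arrays. The 10 genes were Phgdh, Psat1, Psph, Shmt1, Shmt2, Mthfd1, Mthfd2, Mthfd1l, Aldh18a1 and Pycr1. A probe set was included where the platform annotation gives it one of these symbols and no other. This gave 26 probe sets for 9 of the 18193 genes named on the array, out of 34945 probe sets with 1 gene symbol and 45101 on the array. Pycr1 was not analysed here, since no probe set carries its symbol alone, and 2 probe sets annotated to Phgdh together with a second gene were left out.

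The arrays came from RAW264.7, a mouse macrophage line, carrying murine LXRα that was introduced by chemical transfection and stably expressed. LXRα (Nr1h3) is a nuclear receptor for oxysterols that pairs with RXR. One culture received DMSO, the solvent, for 24 h. The other received GW3965, an LXR agonist, at 1 µM together with LG268, an RXR agonist, at 100 nM for 24 h. Both carry the added receptor, the ligands were given only together, and the sources used here do not give whether the cells are 1 clone. Each group has 1 array, so the difference has no replicate check, and every ratio below compares these 2 arrays only.

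Serine is made from the glycolytic intermediate 3-phosphoglycerate by Phgdh, Psat1 and Psph in that order. The hydroxymethyltransferases Shmt1 in the cytosol and Shmt2 in mitochondria convert serine to glycine and load the released carbon onto tetrahydrofolate. Mthfd2 and Mthfd1l in mitochondria and Mthfd1 in the cytosol interconvert the folate-bound carbon that supplies purine and thymidylate synthesis. Proline is made from glutamate by Aldh18a1 and the Pycr reductases. Many of these genes are known targets of ATF4, a transcription factor induced by amino acid shortage and other stresses, and the pathway is active in proliferating cells.

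Signals are MAS5 intensities on a linear scale, and both arrays had a trimmed mean of 2500. Signals under 406 were raised to that floor, the median of all probe sets with 1 gene symbol, and a probe set counted as measured if it exceeded the floor on at least 1 array. The scatter of log2 ratios between probe sets of a gene, as an SD from the 2 brightest probe sets in each of 4480 genes, was 0.26, and 0.14 over 665 genes with both above 10000 on both arrays. It covers measurement within these arrays and not differences between cultures. The ligand response was present, with Abca1, the cholesterol exporter, at 2989 with DMSO and 81159 with ligands, and Srebf1, the lipogenic transcription factor, at 19262 and 61505. Abcg1, another cholesterol exporter, and the desaturase Scd1 were 3.75-fold and 4.61-fold higher. All 9 macrophage markers examined were measured, Csf1r at 127050 and 132072 among them, and 2 of the 9 were at least 1.5-fold higher with ligands. These were Mpeg1, a pore-forming protein, at 22120 and 45001, and Fcgr1, an antibody receptor, at 7730 and 11798. The granulocyte and fibroblast markers were all below the floor on both arrays, and 1 of 5 lymphoid and 1 of 6 dendritic cell markers exceeded it, at no more than 426. Of 6 osteoclast markers, 5 were measured and all 5 had lower signals with ligands, against 53.9% of all measured genes. The sum over the list was 23251 with DMSO and 11376 with ligands. Its brightest member was Nfatc1 (10328 and 5127), whose 5 measured probe sets had log2 ratios from -1.01 to 0.37. The part of the osteoclast markers in the results below was not tested.

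Most of these enzymes had slightly lower signals with ligands. Of the 26 probe sets, all of them measured, 23 had a ratio below 1, against 52.6% of all 18245 measured probe sets. A ratio of at least 1.5-fold lower was reached by 6, against 4.81% of all, and none was 1.5-fold higher, against 6.45%. Only 1 was at least 2-fold lower, against 0.718%, and that probe set of Shmt2 was not matched by the others of its gene. The median log2 ratio over the 26 was -0.36, and over all measured probe sets it was -0.02. The lower ratios were also found at high signal, where the scatter was smaller. All 14 probe sets of these enzymes with a signal above 10000 had ratios below 1, against 54.1% of the 3838 such probe sets on the array. Of the 14, 2 were at least 1.5-fold lower, against 1.69%.

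**Figure D1:**
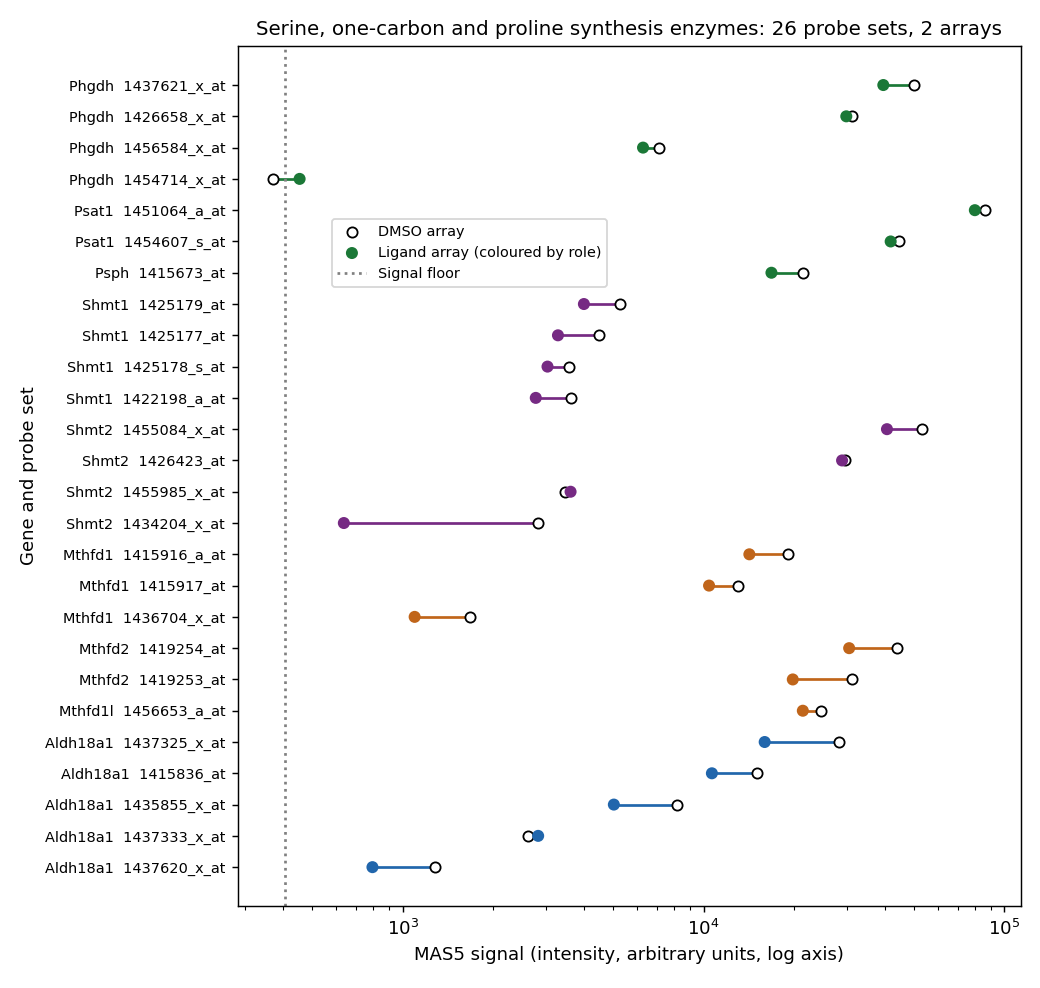
MAS5 signal (log axis, arbitrary units) of each of the 26 probe sets on the DMSO array (open circles) and the ligand array (filled circles, coloured by role), joined by a line, with the signal floor dotted. The filled circle lies left of the open one in 23 of 26 probe sets, and the longest line belongs to 1 probe set of Shmt2 (2824 with DMSO and 638 with ligands).

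**Figure D2:**
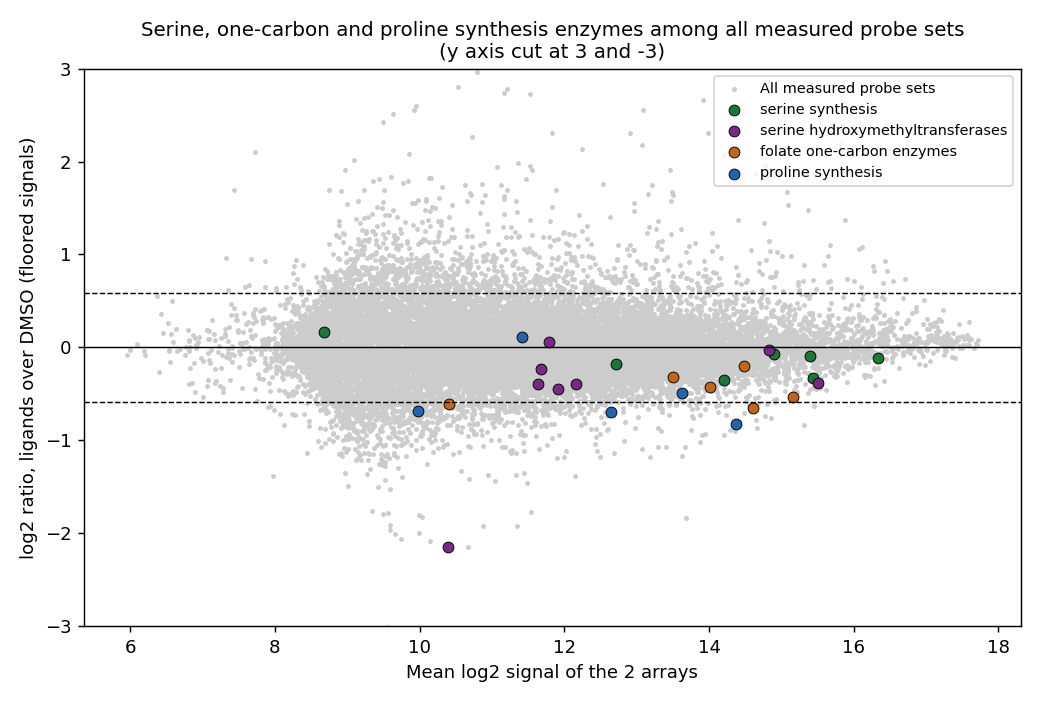
Log2 ratio of ligands over DMSO against the mean log2 signal for all measured probe sets (grey) and for the enzymes (coloured by role), with dashed lines at 1.5-fold. Most coloured points lie below 0 on the right of the plot, where the grey cloud is narrow, and 6 lie on or beyond the lower dashed line.

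By the median over probe sets, the enzymes of serine synthesis differed least of the 4 roles. Their 7 probe sets had a median log2 ratio of -0.11, with 6 below 0 and none as far as 1.5-fold. Gene by gene this did not hold. By the brightest probe set, Psph (-0.35) and Phgdh (-0.33) were further below 0 than the folate enzyme Mthfd1l (-0.20). Phgdh, which oxidises 3-phosphoglycerate in the committing step, gave 49894 with DMSO and 39567 with ligands in its brightest probe set (1437621_x_at), 1.26-fold lower. Its next probe set (1426658_x_at) gave 31243 and 29810, 1.05-fold lower, and the third (1456584_x_at) gave 7113 and 6294, 1.13-fold lower. The probe sets of Phgdh thus shared a direction at these signals but not a size. The last (1454714_x_at) stood at the floor, with 372 and 455. Psat1, the aminotransferase of the middle step, was nearly level, with 86101 and 79715 in 1 probe set (1451064_a_at) and 44509 and 41860 in the other (1454607_s_at). The log2 ratios of Psat1 were -0.11 and -0.09, less than the scatter of bright probe sets. Psph, the phosphatase that releases serine, had a single probe set (1415673_at) at 21392 and 16814, 1.27-fold lower. Its log2 ratio of -0.35 exceeded that scatter, and 7.66% of the bright probe sets had a lower one.

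Shmt1, the cytosolic hydroxymethyltransferase, gave an even picture. All 4 of its probe sets were lower with ligands. They read 5266 and 4004 (1425179_at), 4492 and 3283 (1425177_at), 3631 and 2770 (1422198_a_at) and 3567 and 3030 (1425178_s_at), each pair with DMSO first. The folds ran from 1.18 to 1.37-fold lower, and the log2 ratios had a median of -0.39.

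Shmt2, the mitochondrial enzyme, did not give 1 answer. Its brightest probe set (1455084_x_at) read 53020 with DMSO and 40691 with ligands, 1.30-fold lower. The next (1426423_at) read 29473 and 28862, a log2 ratio of -0.03. The third (1455985_x_at) read 3466 and 3615, slightly higher with ligands. The fourth (1434204_x_at) read 2824 and 638, 4.43-fold lower, and only 0.011% of all measured probe sets had a lower ratio. That value was not seen in any other probe set of Shmt2, so it was not taken as the gene's difference. Without it, the 25 remaining probe sets had a median log2 ratio of -0.35, and 5 of them passed 1.5-fold, none 2-fold.

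Among the folate enzymes, all 6 probe sets were lower with ligands, with a median log2 ratio of -0.48. Mthfd2 is a mitochondrial dehydrogenase and cyclohydrolase that is abundant in embryonic and proliferating cells. It read 44104 with DMSO and 30471 with ligands in 1 probe set (1419254_at), 1.45-fold lower. In the other (1419253_at) it read 31210 and 19795, 1.58-fold lower. Both probe sets of Mthfd2 are of the kind designed for a single transcript, and their log2 ratios of -0.53 and -0.66 lay close together. Lower ratios were found in 2.42% and 1.02% of the bright probe sets.

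Mthfd1, the cytosolic enzyme with 3 activities, read 19142 and 14198 (1415916_a_at), 1.35-fold lower, and 13011 and 10431 (1415917_at), 1.25-fold lower. A dimmer probe set (1436704_x_at) read 1677 and 1096.5, 1.53-fold lower. The 3 probe sets of Mthfd1 therefore pointed the same way. Mthfd1l, the mitochondrial formyltetrahydrofolate synthetase, had 1 probe set (1456653_a_at) at 24510 and 21376, 1.15-fold lower. Its log2 ratio of -0.20 was within the probe set scatter over all signals and slightly beyond that of bright probe sets.

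Aldh18a1 had the lowest ratio by the brightest probe set of each gene, though not by plain _at probe sets. It encodes pyrroline-5-carboxylate synthase, the mitochondrial enzyme that commits glutamate to proline and ornithine. The brightest probe set (1437325_x_at) read 28228 with DMSO and 15964 with ligands, 1.77-fold lower. The probe set with the plain suffix (1415836_at) read 15022 and 10660, 1.41-fold lower. Of the 3 dimmer ones, 2 read 8146 and 5035 (1435855_x_at) and 1277 and 794 (1437620_x_at), both about as low as the brightest, at log2 ratios of -0.69 and -0.69. The remaining probe set (1437333_x_at) read 2620 and 2821, at 0.11. Thus 4 of 5 probe sets of Aldh18a1 were lower, 3 of them at least 1.5-fold, and 1 was not.

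The order of the genes by the log2 ratio of the brightest probe set was Aldh18a1 (-0.82), Mthfd2 (-0.53), Mthfd1 (-0.43), Shmt1 (-0.40), Shmt2 (-0.38), Psph (-0.35), Phgdh (-0.33), Mthfd1l (-0.20) and Psat1 (-0.11). All 9 were below 0, against 53.9% of the 9857 measured genes, and 1 was at least 1.5-fold lower, against 3.80%. No gene of the 9 was 1.5-fold higher, against 5.50%. Neighbours in this order differed by less than the scatter of bright probe sets, except Aldh18a1 and Mthfd2. Their order was not the same in every probe set. The probe sets of Aldh18a1 at -0.82, -0.69 and -0.69 lay below both probe sets of Mthfd2. The plain probe set of Aldh18a1 (1415836_at), at -0.49, and 1437333_x_at, at 0.11, lay above both. In 6 of the 9 genes every probe set was below 0, a count for which no share over all genes was computed. The 6 include Psph and Mthfd1l, which have 1 probe set each, so the count is not read as a result. Of the 9 genes, 7 have more than 1 probe set. By compartment, the 12 probe sets of the mitochondrial enzymes Shmt2, Mthfd2, Mthfd1l and Aldh18a1 had a median of -0.51, or -0.49 without the lowest probe set of Shmt2. At least 1.5-fold lower were 5 of the 12, or 4 of 11 without that probe set, and 3 of these belong to Aldh18a1. The 14 of the cytosolic enzymes Phgdh, Psat1, Psph, Shmt1 and Mthfd1 had a median of -0.33. Of these, 1 was at least 1.5-fold lower, close to the 4.81% of all measured probe sets. The difference between compartments was not tested.

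The kind of probe set mattered for the counts. Names ending in _x_at mark probe sets that may bind several transcripts, and 5 of the 6 ratios of at least 1.5-fold lower came from these. The 8 probe sets with the plain ending _at, expected to be specific, were all below 0 with a median log2 ratio of -0.42. Only 1 of these, of Mthfd2, was at least 1.5-fold lower.

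Promoter sequences are shown for Mthfd2 and Aldh18a1, the genes with the lowest ratios, and for Pycr1, the only gene of the 10 whose window holds the ATF4 motif. They are RefSeq windows on GRCm38.p6, from 250 bases before to 50 bases after the start site. Asns, asparagine synthetase, is a known ATF4 target and is shown for comparison. Capitals in Aldh18a1 mark an E-box, CACGTG, the letters bound by MYC proteins. Capitals in Pycr1 and Asns mark the C/EBP-ATF response element searched as TGATGNAAN, with 50 bases on each side. No capitals are given in Mthfd2, whose window holds neither. Mthfd2 lies at chr6:83317555-83317854 and Aldh18a1 at chr19:40588414-40588713, with Pycr1 at chr11:120643793-120643901 and Asns at chr6:7693174-7693282, all on the minus strand.
Mthfd2: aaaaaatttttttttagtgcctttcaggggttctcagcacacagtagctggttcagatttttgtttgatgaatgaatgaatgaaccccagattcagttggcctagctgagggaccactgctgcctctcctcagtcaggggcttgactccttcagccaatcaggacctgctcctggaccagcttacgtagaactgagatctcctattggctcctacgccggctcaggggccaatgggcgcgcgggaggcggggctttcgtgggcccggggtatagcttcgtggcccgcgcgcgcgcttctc
Aldh18a1: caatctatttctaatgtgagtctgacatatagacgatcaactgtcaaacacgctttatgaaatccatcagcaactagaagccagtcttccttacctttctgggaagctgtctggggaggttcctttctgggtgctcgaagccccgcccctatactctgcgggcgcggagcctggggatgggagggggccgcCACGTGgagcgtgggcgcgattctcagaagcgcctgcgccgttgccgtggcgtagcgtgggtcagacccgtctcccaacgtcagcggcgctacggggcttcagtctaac
Pycr1: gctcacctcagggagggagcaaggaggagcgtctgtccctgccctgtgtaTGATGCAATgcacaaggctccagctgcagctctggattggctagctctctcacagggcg
Asns: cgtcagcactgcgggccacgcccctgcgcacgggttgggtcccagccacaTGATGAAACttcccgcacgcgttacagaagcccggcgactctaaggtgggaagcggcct

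The motifs were searched on both strands, and a match describes letters in these windows only. The ATF4 element was found in 1 of the 11 windows of the 10 enzyme genes, 103 bases before the start of Pycr1, and in 3.95% of all 32851 windows. Among 22 windows of genes of the ATF4 programme described below, 8 held it, among them that of Asns 23 bases before the start. The E-box was found in 1 of the 11 windows, 59 bases before the start of Aldh18a1, and in 7.15% of all. The direct repeat with a 4-base spacer that LXR and RXR bind (DR4), searched as a single fixed pattern, was in none of the 11 and in 0.0152% of all. Looser forms of the repeat were not searched. A pattern this rare could hardly be met in 11 windows, so its absence does not show whether LXR binds at these genes.

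The wider pathway was read from gene lists, each gene by its brightest probe set. Read in this way, 53.9% of all 9857 measured genes were below 0. At least 1.5-fold lower were 3.80% of them, and 5.50% were at least 1.5-fold higher. Of 12 other folate genes measured, 7 were below 0, with 2 of them past 1.5-fold and none 1.5-fold higher, and their median log2 ratio was -0.09. Aldh1l2, the mitochondrial 10-formyltetrahydrofolate dehydrogenase, read 7480 with DMSO and 4078 with ligands, 1.83-fold lower. Mtrr, which reactivates methionine synthase, read 3051 and 1906, 1.60-fold lower. The folate importer Slc19a1 was at -0.28, and thymidylate synthase Tyms was level at low signal (866 and 831). Mthfd2l, a paralogue of Mthfd2, stood at low signal with 736 and 853, 1.16-fold higher, with its 4 probe sets between -0.16 and 0.69.

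Genes that spend serine, glycine or methionine were mixed. Among 5 measured genes of glycine and serine breakdown, none was 1.5-fold apart by the brightest probe set. The median was 0.02, the value of Srr, serine racemase, and it was -0.13 when both arrays had to exceed the floor. The 4 measured probe sets of Srr disagreed, from -0.88 to 0.62, at low signals. By the brightest probe set, the largest difference was in Sfxn1, the mitochondrial serine importer, which read 19896 and 15072, 1.32-fold lower, and -0.54 in its second probe set, followed by Dld, the lipoamide dehydrogenase, at -0.28. In the methionine cycle and transsulfuration, 5 of 6 measured genes were below 0 and the median was -0.33. Cth, cystathionine γ-lyase, which makes cysteine, read 3483 with DMSO and 1288 with ligands. At 2.70-fold lower, Cth was the furthest below 0 of the genes in these pathway lists, although it rests on a single probe set. Of 13 genes of purine and thymidylate synthesis, 10 were below 0 with a median of -0.20, and none was 1.5-fold apart. Dut, the dUTPase, was at -0.35 and Atic, an enzyme of purine synthesis, at -0.34.

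Other genes of proline and ornithine handling were mixed. Of 5 measured, 3 were below 0 with a median of -0.08 and none was 1.5-fold apart. Pycrl, a pyrroline-5-carboxylate reductase now named Pycr3, read 6459 and 5058, 1.28-fold lower, and Aldh4a1, which breaks proline down to glutamate, read 1511 and 1997, 1.32-fold higher. The enzymes that use serine for lipids had a median of -0.03 over 5 genes. Among them, the phosphatidylserine synthase Ptdss2 was the furthest, at 0.33 with its 7 measured probe sets between -0.24 and 0.73, and Sptssa, a subunit of serine palmitoyltransferase, was at 0.19. The 3 measured enzymes of lower glycolysis were near level by the brightest probe set, with a median of 0.03. They ranged from -0.03 in Pkm, pyruvate kinase, to 0.15 in Pgam1, phosphoglycerate mutase. Pgk1, phosphoglycerate kinase, was at 0.03, but at 0.37 in its second probe set. With the mean over a gene's probe sets the median of the list was 0.15.

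**Figure D3:**
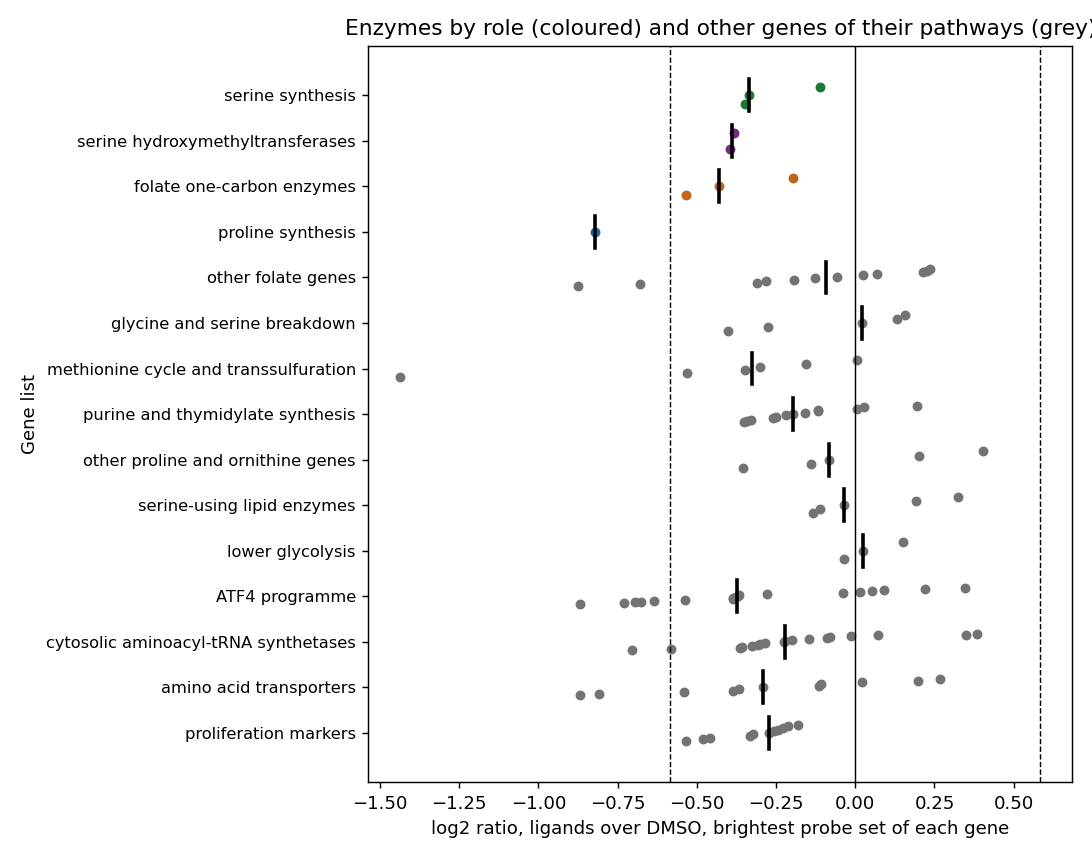
Log2 ratio of ligands over DMSO for the brightest probe set of each gene, with 1 row per gene list, black bars at list medians and dashed lines at 1.5-fold. The 9 enzymes in colour all lie below 0. In the grey lists, medians are lowest in the ATF4 programme (-0.37), the methionine cycle (-0.33), amino acid transporters (-0.29) and proliferation markers (-0.27). That of lower glycolysis (0.03) lies near 0.

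The ATF4 programme and genes of amino acid supply were read in the same way, beside the same shares of all measured genes (53.9% below 0, 3.80% at least 1.5-fold lower). Of 18 measured genes of the ATF4 programme, 13 were below 0 and 5 of these passed 1.5-fold. None was 1.5-fold higher, and the median was -0.37. Atf4 itself read 69962 and 54138 in its brightest probe set, 1.29-fold lower, and -0.49 in its second. Slc7a11, the cystine importer, read 1475 and 808, 1.83-fold lower. Trib3 (4528 and 2730), Chac1 (13230.0 and 8171) and Ddit3 (6951 and 4353) were at -0.73, -0.70 and -0.68, and Asns (55774 and 35911) at -0.64. The second probe set of Ddit3 was at -0.17, and the count past 1.5-fold was 4 with the mean over a gene's probe sets. Not all known targets had lower signals, since Atf3 (7065 and 8991) was 1.27-fold higher and Ddit4 (9761 and 11370) 1.16-fold higher. Of 18 measured aminoacyl-tRNA synthetases, 15 were below 0 with a median of -0.22, and Hars alone was at least 1.5-fold lower. Its second probe set was at -0.21. Of 11 amino acid transporters, 8 were below 0 with a median of -0.29. Of these 8, 3 are also in the ATF4 programme, namely Slc7a11, Slc7a5 and Slc3a2. The glycine transporter Slc6a9 was at -0.81, though -0.12 in its second probe set.

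All 11 measured proliferation markers were below 0, against 53.9% of all measured genes, with a median of -0.27 and a range of -0.53 to -0.18. The replicative helicase subunits Mcm3 and Mcm6 were the furthest, at -0.53 and -0.48. In the MYC family, Myc was below the floor on both arrays (379 and 82.3). Mycn read 193135 and 203503, at 0.08, and Max, the shared partner, read 5114 and 8331, 1.63-fold higher from 1 probe set. The part of the proliferation genes and of the ATF4 programme in the lower signals of the serine, folate and proline enzymes was not tested. In RNA from whole cultures, fewer cells expressing a gene and less RNA per cell cannot be told apart.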

How the data were processed

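Total RNA from 2 cultures was hybridised to Affymetrix mouse arrays, 1 per group. Per the submitters' processing notes, the authors used MAS5 (no version given in the sources used here), and the deposited table holds its linear intensities for each probe set. They were used as deposited, since both arrays had a 2% trimmed mean of 2500. A ratio is therefore relative to the bulk of the array.

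Gene names came from the platform annotation, with 34741 of 34945 symbols updated by gene identifier to GRCm38.p6. Of 196 names in the lists 174 matched. Control probe sets were left out. Log2 ratios of ligands over DMSO were taken after raising signals to the floor, the 50th percentile. A gene was read from its brightest probe set (by mean log2 signal). The thresholds were 1.5-fold and 2-fold. With 1 array per group no test was possible, and the number of arrays limits the precision.

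Named were all 10 genes, up to 4 genes per pathway list that passed 1.5-fold, taking the furthest first (otherwise the 2 furthest), and Atf4, Myc, Nr1h3, Abca1, Srebf1, Tyms, Mthfd2l, Asns and Trib3, with other items of the rule not reported here. Nr1h3 read 3150 and 5577. A few further list members were chosen after their values were seen. The enzymes and lists were chosen with earlier results of these data known. The signal limit of 10000 was added after seeing the data. The ratio code was checked on a ligand array simulated from the real DMSO array. The changes put in were larger than most differences reported here, so the check does not cover small ones. Python 3.11.15, numpy 2.4.6 and pandas 2.3.3 were used. Alternatives were floors at the 25th and 75th percentile, log2(signal + 32) without a floor, ratios centred on their median, quantile normalization, only probe sets ending in plain _at, only those above the floor on both arrays, and the mean over a gene's probe sets.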

Additional observations from a re-analysis of the deposited data

How the results depend on the processing

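The ratios of single enzyme probe sets gave 158 recomputed values in total, over the alternatives that kept a probe set as measured. All 158 stayed within 1 probe set SD of the reported ratio and kept its sign. Much of this was fixed in advance. Selecting probe sets left each kept ratio as it was. A changed floor can alter only ratios with a signal near or under a floor, and centring shifts all ratios alike. The median over the enzyme probe sets ranged from -0.42 with plain _at probe sets alone to -0.33 with the floor at the 75th percentile. The 6 probe sets at least 1.5-fold lower became 3 with that floor and 1 with plain _at probe sets, and the 1 at least 2-fold lower became 0 in both and without the Shmt2 probe set 1434204_x_at, an omission chosen after seeing the data. Fewer probe sets were measured under both. Of 352 list medians and counts recomputed, 322 stayed as reported or close to it. Close meant a median moved by no more than 0.26, or a count changed by no more than 1.5-fold. Several list medians are smaller than 0.26, so they could change sign and still count as close. That of the serine-using lipid enzymes went from -0.03 to 0.12 with the mean over probe sets. With the floor at the 25th percentile, genes at least 1.5-fold lower numbered 2 in glycine and serine breakdown (1 higher), 2 in the methionine cycle, 1 in other proline genes and 2 in the MYC family, with 1 higher in the ATF4 programme. With the floor at the 75th percentile, they numbered 1 of the other folate genes, 0 in the methionine cycle, 3 in the ATF4 programme and 0 among transporters, and the medians of glycine and serine breakdown and of the MYC family were -0.28 and 0.39. Without a floor, they numbered 4 of the other folate genes, 1 in glycine and serine breakdown (2 higher), 2 in the methionine cycle, 1 in other proline genes (1 higher) and 2 in the MYC family, with 1 higher in the ATF4 programme. With plain _at probe sets, 1 other folate gene was higher, 1 purine gene lower and 2 aminoacyl-tRNA synthetases lower. With the mean over probe sets, 0 synthetases and 1 transporter were lower. The cause of these shifts was not tested. No paired analysis was possible because each group has 1 array.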
